A study of Homo sapiens with 18 samples.

Results

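The 7 genes of the cyclin-dependent kinase (CDK) inhibitors, CDKN1A, CDKN1B, CDKN1C, CDKN2A, CDKN2B, CDKN2C and CDKN2D, were examined in ChIP-seq data of HEK293T cells, a transformed human embryonic kidney line. All 7 lie among the 19111 protein-coding genes considered. A peak was taken as theirs when it shared at least 1 bp with the gene body (GENCODE release 44, hg38) or with the 10 kb on either side. Overlapping peaks of the 6 libraries of an antibody were merged into regions, which gave 25 of 55382 H3K27ac regions and 14 of 69985 CTCF regions at these genes. H3K27ac, acetylation of lysine 27 of histone H3, marks promoters and enhancers in use. CTCF binds DNA at insulators and where chromatin loops are anchored. Cells of the CTRL groups were untreated. Those of the VPA groups received valproic acid, which blocks histone deacetylases, at 1 mM for 1 day. Each of the 4 groups (H3K27ac CTRL, H3K27ac VPA, CTCF CTRL and CTCF VPA) held 3 replicates. All libraries come from 1 line, and nothing states that the replicates were separate cultures, so p-values measure the spread between these libraries, which may be technical.

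CDK inhibitors hold back the cell cycle by binding cyclin-CDK complexes. The CIP/KIP members (CDKN1A, which encodes p21, CDKN1B, which encodes p27, and CDKN1C, which encodes p57) bind complexes of several cyclins, whereas the INK4 members (CDKN2A, CDKN2B, CDKN2C and CDKN2D, which encode p16, p15, p18 and p19) bind CDK4 and CDK6 and keep the retinoblastoma protein active. CDKN2A also makes ARF, another tumour suppressor protein, from an upstream start. CDKN1A is a classic gene whose RNA rises when histone deacetylases are inhibited, and GC boxes in its promoter, bound by SP1 and SP3, are known to take part. HEK293T cells carry viral oncoproteins that bind the retinoblastoma protein, which limits the line as a model of this pathway.

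On fold enrichment over local background, CDKN1A, the classic gene of this treatment, had no called H3K27ac region. The CDKN1B promoter was lower in VPA on that measure with replicate number as a block. For this reason the promoter sequences of CDKN1A and CDKN1B are shown. They are the 250 bases before the RefSeq gene start (GRCh38.p14, plus strand), with the GC box GGGCGG, or its reverse complement, in capitals. The CDKN1A stretch lies at chr6:36678464-36678713 and the CDKN1B stretch at chr12:12717118-12717367.
CDKN1A: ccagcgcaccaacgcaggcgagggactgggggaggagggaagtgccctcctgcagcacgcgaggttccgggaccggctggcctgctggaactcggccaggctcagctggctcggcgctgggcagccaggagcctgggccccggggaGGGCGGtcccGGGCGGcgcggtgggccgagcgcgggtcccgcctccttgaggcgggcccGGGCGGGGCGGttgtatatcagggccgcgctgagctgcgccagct
CDKN1B: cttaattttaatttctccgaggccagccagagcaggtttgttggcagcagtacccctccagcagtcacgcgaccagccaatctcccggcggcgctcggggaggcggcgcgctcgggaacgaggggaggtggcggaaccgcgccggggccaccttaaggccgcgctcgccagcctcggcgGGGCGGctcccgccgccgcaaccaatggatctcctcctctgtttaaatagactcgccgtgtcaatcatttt
CDKN1A held 4 GC boxes, of which the last 2 overlap, and CDKN1B held 1. In all, 9 RefSeq starts matched 6 of the 7 genes, and CDKN1C had no entry. The other starts held 0 and 1 boxes (CDKN2A), 2 (CDKN2B), 0, 5 and 1 (CDKN2C) and 2 (CDKN2D). Of all 35116 RefSeq promoters, 42.6% held at least 1 box and 13.9% held 3 or more.

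For CTCF, a core of 12 bases, of which 8 are fixed, was searched on either strand (CCA, any 2 bases, AG, any 2 bases, then GGC), within 100 bp of the strongest summit of each region. The sites below are those closest to the summit in the regions with a match at all 8 letters or at 7 of them. They are shown because 4 of the 6 regions were among the strongest CTCF regions of these genes. Each is 30 bases, read 5′ to 3′ on its own strand, with the 12 searched positions in capitals.
CDKN1C promoter, chr11:2885168-2885197, plus strand: gccgcggcgCCAGCAGCAGGCggcagcgcc
CDKN1C upstream, chr11:2888543-2888572, minus strand: tccatctggCCAGCAGAGGGCgcagaagga
CDKN1A intron, chr6:36680605-36680634, minus strand: ccgccagggCCGGGAGGGGGCgccggcctc
CDKN2B exon, chr9:22008754-22008783, minus strand: agggcctcgCCGGCAGGGGGCgcgcgaacg
CDKN2D upstream, chr19:10572499-10572528, minus strand: ccccagtagCCGCTAGAGGGCgcgtgttag
CDKN2C upstream, chr1:50968183-50968212, plus strand: gcgcgcgcgCCTAGAGGAGGCagcagcagc
The first CDKN1C site lies inside the gene, in the region that spans its starts. Both CDKN1C sites matched all 8 letters, and their centres lay 69 bp and 2 bp from the summit. The other 4 missed 1 letter and lay within 14 bp of the summit. Thus 2 of the 14 CTCF regions held a full match, against 17.0% of all 69985 regions, and 6 held one when 1 mismatch was allowed, against 59.7%. Windows moved 2 kb away held a full match in 0.716% and a match with 1 mismatch in 13.4%. A match is only a match of letters, and its absence says nothing about CTCF itself.

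The depth of each library is unknown, since read totals are not part of a peak list. The genome-wide background recovered from the lists, a measure of relative depth, was 3.51 to 3.95 fragments in the 12 libraries. The lists held 26299 to 29799 H3K27ac peaks in CTRL and 38441 to 40992 in VPA, and 36469 to 58782 CTCF peaks. The strength of a region was read as the fold enrichment of its strongest summit over local background, which is the authors' value. It was also read as summit coverage, the recovered number of fragments over the summit divided by the genome-wide background of the library. Where a library had several peaks in a region, the highest value of each measure was taken. Fold and coverage could thus come from different peaks. Replicate 1 of both treatments stood apart. At the promoter regions of these genes, the highest local H3K27ac background at any peak of a region was 27.7 to 65.3 fragments in replicate 1. It was 7.41 to 16.9 in replicates 2 and 3. That background need not belong to the peak that gave the fold. Folds were low in replicate 1 while summit coverage was not. Values are therefore also given with replicate number as a block where that changes a call. The median H3K27ac change of these regions, −0.25 on the log2 scale, was −0.36 in replicates 2 and 3 alone, −0.83 without CTRL replicate 1 and 0.15 without VPA replicate 1.

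The first question was whether H3K27ac regions at these genes appeared or disappeared with VPA. H3K27ac was present at all 7 promoters in all 6 libraries. Of the 25 regions, 0 were found in every VPA library and no CTRL library, against 4.12% of all regions, and 0 showed the reverse pattern, against 0.139%. A peak in all 6 libraries was found at 18 of the 25 regions (72%), against 33.2% of all regions. The other 7 comprised 2 regions near CDKN2C in 1 VPA library each and 5 weak regions. Near CDKN1B, chr12:12704127-12705200 had a peak in 2 CTRL and 3 VPA libraries (folds of 3.12 to 10.3), and chr12:12729596-12730559 in 2 VPA libraries alone (2.45 and 2.65). Near CDKN1C, chr11:2891481-2893086 had one in 2 CTRL and 3 VPA libraries, and an intronic CDKN2A region, chr9:21990963-21991891, in 2 and 2. In an AP1M2 intron beside CDKN2D, near an annotated but not canonical start of AP1M2, chr19:10575812-10578037 had a peak in CTRL replicate 3 and in 3 VPA libraries. Its folds were at most 3.71.

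VPA was then compared with CTRL at the 18 regions present in all libraries, by limma on log2 fold enrichment over all 18407 such H3K27ac regions. Without a block, the limma test with Benjamini-Hochberg adjustment called 0 of the 18 regions and 0% of all regions in either direction. At an unadjusted p below 0.05 it gave 0 of the 18 and 301 of all regions. With replicate number as a block, 7 of the 18 were lower in VPA and 0 higher, against 11.8% lower and 4.73% higher of all regions. With each library centred on its median, that split over all regions was 8.57% lower and 6.45% higher, and 6 of the 18 were lower. The median log2 change was −0.25 over the 18 regions, −0.14 over all regions and −0.27 over the 10218 regions that hold a promoter. The 7 lower regions lay at CDKN1B (2), CDKN2C (2) and the CDKN2A and CDKN2B locus (3). In replicates 2 and 3 alone the 7 changed by −1.11 to −0.66, and each was also lower in VPA in replicate 1. No region at CDKN1A, CDKN1C or CDKN2D was called on fold enrichment.

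**Figure D1:**
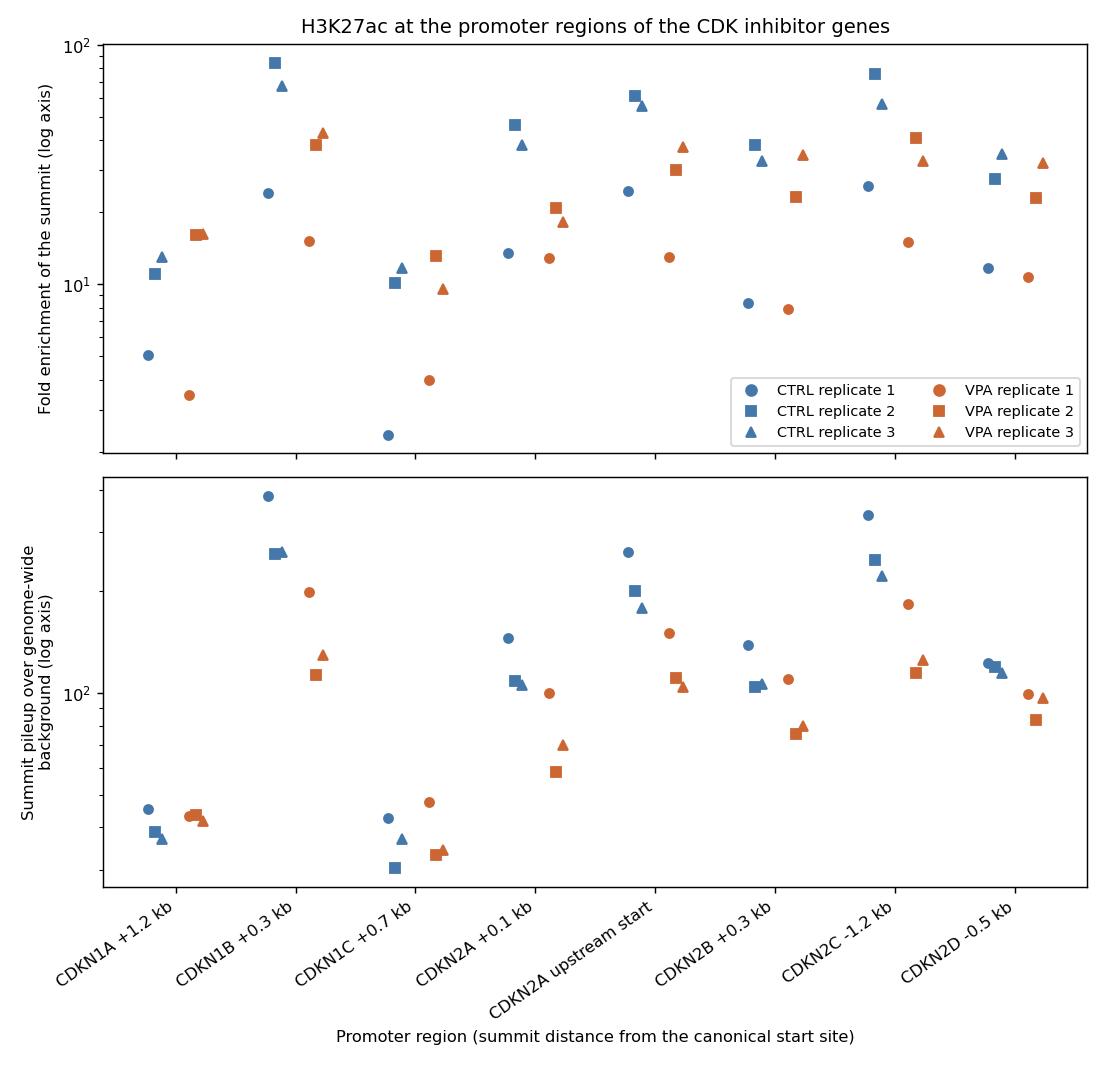
H3K27ac at the promoter regions of the CDK inhibitor genes in each library, as fold enrichment over local background (upper panel, log axis) and as summit pileup over the genome-wide background of the library (lower panel, log axis). Blue symbols are CTRL and orange symbols VPA, with 1 symbol shape per replicate. Folds of replicate 1 (circles) lie lowest within each treatment, and in the lower panel CTRL lies above VPA at CDKN1B, at both CDKN2A starts, at CDKN2C and at CDKN2D but not at CDKN1A, CDKN1C or CDKN2B.

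The CIP/KIP genes differed among themselves. CDKN1A carried 2 H3K27ac regions, and neither was called on fold enrichment. Its promoter region, chr6:36675830-36681309, spans both annotated groups of starts (near 36676460 and at 36678714) and has its median summit in intron 1, 1230 bp after the canonical start. It also lies within 1 kb of the starts of PANDAR and DINOL, long noncoding RNAs of this locus. Its folds were 5.06, 11.1 and 13.0 in CTRL replicates 1 to 3, and 3.45, 16.1 and 16.3 in VPA replicates 1 to 3. VPA was higher in replicates 2 and 3 and lower in replicate 1, and the groups overlapped. In replicate 1 the domain was broken into 3 peaks in CTRL and 2 in VPA, and the highest CTRL fold there came from a peak near the upstream start rather than from intron 1. Matched by position, the replicate 1 folds were 3.07 in CTRL and 3.45 in VPA at the intron 1 peak. Near the upstream start they were 5.06 and 3.20, so the direction in replicate 1 depended on the peak. The log2 change was 0.10 (SE 0.66, limma adjusted p = 1.00), and with the block 0.10 (SE 0.24, 95% interval −0.41 to 0.61, adjusted p = 0.804). Summit coverage was 45.5, 38.8 and 37.1 in CTRL and 43.2, 43.5 and 41.8 in VPA. In CTRL replicate 1 this coverage came from the intron 1 peak, not from the peak that gave the fold of 5.06. On that scale the log2 change was 0.09 with the block (95% interval −0.13 to 0.31, limma adjusted p = 0.492).

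The second CDKN1A region, chr6:36665579-36668853, lies between genes 11.3 kb before the canonical start. Its folds were 4.61, 19.0 and 14.2 in CTRL and 10.7, 14.0 and 11.0 in VPA, so that VPA was higher in replicate 1 alone. The log2 change in fold was 0.13 (SE 0.67 without and 0.27 with the block, limma adjusted p = 1.00 and 0.769). Summit coverage was 34.7, 45.9 and 42.2 in CTRL and 34.8, 30.1 and 29.2 in VPA. Its log2 change was −0.38 with the block (SE 0.12, limma adjusted p = 0.00497), where 53.7% of all regions were lower, so the direction for this region turned with the measure. Local background in replicate 1 was 26.5 fragments in CTRL and 11.1 in VPA.

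CDKN1B, whose product p27 restrains entry into S phase, had the 2 regions with the strongest H3K27ac of the CIP/KIP genes, and both were lower in VPA. At its promoter, chr12:12713134-12722312 (summit 289 bp after the start, in an exon), folds were 24.2, 84.3 and 67.5 in CTRL and 15.1, 38.2 and 42.8 in VPA. Each VPA library was below the CTRL library of its number, although the groups overlapped through CTRL replicate 1. The log2 change was −0.83 (SE 0.72, limma adjusted p = 1.00), and with the block −0.83 (SE 0.20, adjusted p = 0.0122). Summit coverage was 383, 258 and 262 in CTRL and 200, 113 and 129 in VPA, with no overlap between groups.
The region just after the gene, chr12:12722767-12727761, summit 7.7 kb after the start and within 1 kb of a start of APOLD1, had folds of 31.8, 119 and 84.6 in CTRL and 15.9, 47.9 and 56.5 in VPA. Its log2 change of −0.96 (with the block, SE 0.21, limma adjusted p = 0.00707) was the most negative of the 18 regions. Only 1.96% of all tested regions changed more negatively. At the start of GPR19, an orphan receptor gene upstream, the change was −0.27, and in an intron of APOLD1 it was 0.36. Neither was called with the block (limma adjusted p = 0.415 and 0.295).

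CDKN1C, an imprinted gene whose product p57 acts in development, had weak promoter acetylation, with summit coverage near that of the CDKN1A promoter. At chr11:2883803-2887065 folds were 2.35, 10.1 and 11.7 in CTRL and 3.99, 13.1 and 9.61 in VPA. The strongest summits lay 1052 to 1236 bp after the start in CTRL and 266 to 301 bp after it in VPA. These folds were thus read at different positions and were not matched. VPA was higher in replicates 1 and 2 and lower in replicate 3. The log2 change was 0.28 (with the block, SE 0.25, 95% interval −0.24 to 0.80, limma adjusted p = 0.448). Summit coverage of 42.7, 30.3 and 37.1 in CTRL and 47.6, 33.2 and 34.4 in VPA also overlapped.

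The INK4 genes were examined in the same way, and the shared CDKN2A and CDKN2B locus on chromosome 9 held 3 regions lower in VPA. At the p16 start, chr9:21973668-21976313, folds were 13.5, 46.2 and 38.2 in CTRL and 12.8, 20.9 and 18.2 in VPA. The change was small in replicate 1 (log2 −0.07) and larger in replicates 2 (−1.14) and 3 (−1.07). The fitted change was −0.76 (SE 0.73, limma adjusted p = 1.00), and with the block −0.76 (SE 0.22, adjusted p = 0.0276). At the upstream start that gives ARF, chr9:21992580-21997122, which also holds a start of the antisense RNA CDKN2B-AS1, folds were 24.5, 61.3 and 55.3 in CTRL and 13.0, 29.9 and 37.3 in VPA. All 3 replicate numbers were lower in VPA, and the change with the block was −0.84 (SE 0.20, limma adjusted p = 0.0105). H3K27ac does not tell from which of the opposed starts it comes.
CDKN2B, which encodes p15 and is known as a target of TGF-beta signalling, had 2 further regions. Within the gene, chr9:22004777-22007590 had folds of 7.93, 24.2 and 24.9 in CTRL and 5.07, 14.9 and 16.3 in VPA. The change with the block was −0.65 (SE 0.20, limma adjusted p = 0.0355), and after median centring with the block it was −0.57 (adjusted p = 0.0587). At the CDKN2B promoter, chr9:22007959-22009966, folds were 8.32, 38.0 and 32.8 in CTRL and 7.89, 23.2 and 34.8 in VPA, and the change of −0.24 was not called (SE 0.21, limma adjusted p = 0.451 with the block). An intronic CDKN2A region, chr9:21986815-21990506, was among the weakest, with folds of 4.17 to 5.77 in CTRL and 5.13 to 6.26 in VPA and a change of 0.26 (limma adjusted p = 0.482 with the block).

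CDKN2C, which encodes p18, had 4 regions with a peak in all 6 libraries, and 2 were lower in VPA. Its promoter region, chr1:50967324-50974970, showed folds of 25.7, 75.6 and 56.4 in CTRL and 15.0, 41.0 and 32.7 in VPA. All 3 replicate numbers were lower in VPA by a similar amount (log2 −0.78, −0.88 and −0.79). The change with the block was −0.82 (SE 0.19, limma adjusted p = 0.0106). The region after the gene, chr1:50975491-50980608, had folds of 35.2, 95.3 and 111 in CTRL and 23.0, 60.5 and 61.1 in VPA, a change of −0.71 (with the block, SE 0.20, limma adjusted p = 0.0241). The region at the FAF1 start upstream, chr1:50957314-50962230, also holds an upstream CDKN2C start. Its change in fold of −0.63 was not called (SE 0.24, limma adjusted p = 0.0792 with the block). A weak region 14.8 kb after the canonical start changed by 0.50 (limma adjusted p = 0.194 with the block).
CDKN2D, which encodes p19, showed values close together. At its promoter, chr19:10567996-10573169, folds were 11.7, 27.5 and 34.9 in CTRL and 10.7, 23.0 and 32.0 in VPA. VPA was slightly lower in each replicate number (log2 −0.13, −0.26 and −0.12). The change was −0.17 (with the block, SE 0.19, 95% interval −0.57 to 0.23, limma adjusted p = 0.565). At the KRI1 start beside it the change was −0.06 (limma adjusted p = 0.859 with the block).

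**Figure D2:**
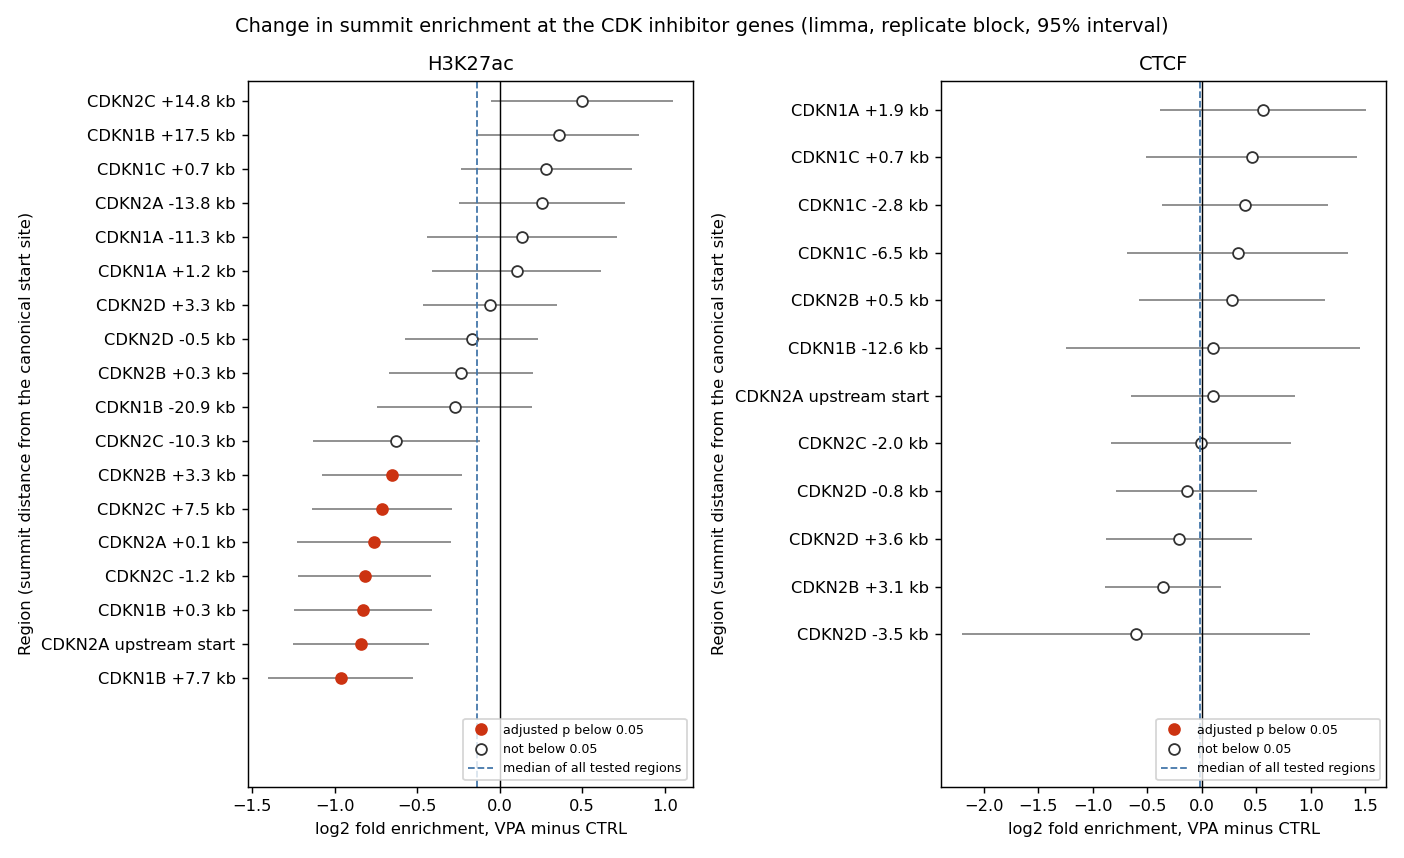
Log2 change in fold enrichment (VPA minus CTRL) of each region with a peak in all 6 libraries, for H3K27ac (18 regions, left) and CTCF (12 regions, right). Points are limma estimates with replicate number as a block, bars are 95% intervals, filled points have an adjusted p below 0.05, and the dashed line is the median of all tested regions. The 7 filled H3K27ac points lie between −0.96 and −0.65, and no CTCF point is filled.

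Summit coverage gave a wider separation than fold enrichment. On fold enrichment the groups overlapped at all 18 regions, whereas 4.53% of all regions had VPA wholly above and 1.56% had CTRL wholly above. On summit coverage every CTRL library exceeded every VPA library at 8 of the 18 regions, against 28.1% of all regions, and 0 showed the reverse, against 9.92%. These 8 were the 7 named above and the CDKN2D promoter, with coverage of 123, 119 and 115 in CTRL and 99.0, 83.3 and 96.7 in VPA. The limma test on summit coverage called 7 regions lower without a block, against 13.3% of all regions, and 0 higher, against 4.04%. These were not the same 7 as on fold enrichment with the block. The p16 start was not called (limma adjusted p = 0.0563), and the FAF1 start region was (log2 −0.85, adjusted p = 0.0447). With the block the limma test on summit coverage called 13 lower and 2 higher, against 53.7% and 12.2% of all regions. The 2 higher regions were the weak ones in the CDKN2A intron (log2 0.49, adjusted p = 0.0406) and after CDKN2C (log2 0.56, adjusted p = 0.00777). Since the coverage scale moved the median of all regions from −0.14 to −0.28, the 13 lower calls are to be read against that shift.

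The regions were next set against others of like strength. Over all H3K27ac regions, the median log2 change fell with mean summit pileup, from 0.18 in the lowest decile to −0.52 in the highest, and the share called lower with the block went from 1.79% to 39.2%. The promoters of CDKN1B and CDKN2C and the ARF start lay in the highest decile and changed by −0.83, −0.82 and −0.84. The CDKN1A promoter lay in decile 5, where the median change was −0.05, and the CDKN1C promoter in decile 4, where it was 0.07. The p16 start lay in decile 8, where the median was −0.29, and changed by −0.76. These are descriptions, since level and change were read from the same libraries.

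**Figure D3:**
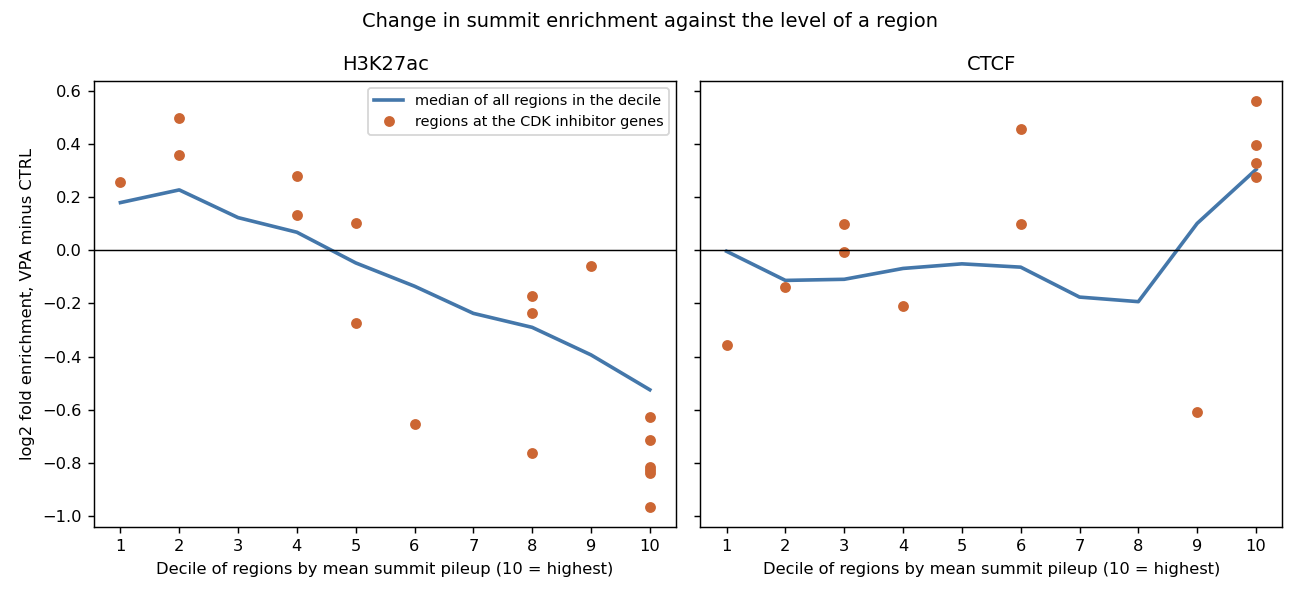
Log2 change in fold enrichment (VPA minus CTRL) against the strength of a region, in deciles of all tested regions by mean summit pileup, for H3K27ac (left) and CTCF (right). The line is the median of all regions in each decile and the points are the regions at the CDK inhibitor genes. For H3K27ac the line runs from 0.18 to −0.52, and the 6 points in the highest decile lie below it.

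The length covered by peaks was compared as a readout of spread. The H3K27ac mean was longer in VPA at 7 of 7 genes, and at each gene the VPA library was longer than the CTRL library in 3 of 3 replicate numbers. The groups overlapped at all 7 (VPA lay wholly above CTRL at 0, against 31.6% of genes with a peak, and wholly below at 0, against 0.187%), and no difference passed an exact permutation test (two-sided p of 0.2 to 0.6, where 0.1 is the smallest 3 against 3 allows). CDKN2D had the greatest difference. Its peaks covered 4175, 6317 and 6714 bp in CTRL and 6299, 10044 and 11006 bp in VPA, a mean difference of 3381 bp (exact permutation p = 0.3). CDKN1A had the smallest, with 4473, 6595 and 7183 bp in CTRL and 4900, 7130 and 7300 bp in VPA (360 bp, exact permutation p = 0.6). The median difference over all 16041 genes with a peak was 825 bp, so a longer mean in VPA was common over all genes. The share of all genes with a longer mean was not counted, and 7 of 7 is not read as a trait of these genes. The number of H3K27ac peaks per window differed by at most 1.33 in the mean.

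**Figure D4:**
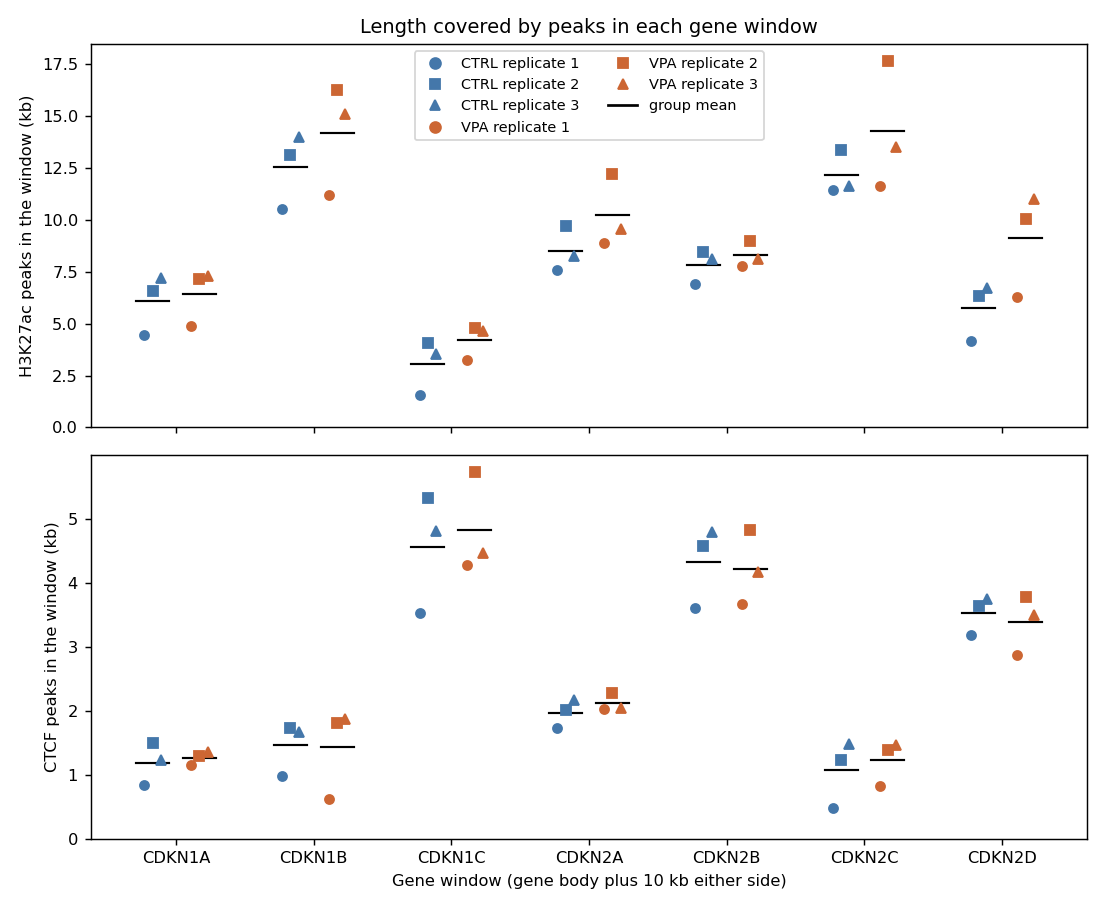
Length covered by H3K27ac peaks (upper panel) and CTCF peaks (lower panel) within each gene and the 10 kb on either side, in kb, for each library. Blue is CTRL, orange is VPA, the symbol gives the replicate number and the black bar is the group mean. The H3K27ac means are longer in VPA at all 7 genes, while the libraries of both treatments overlap at each.

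CTCF was examined at the same genes. Of the 14 CTCF regions, 12 (85.7%) had a peak in all 6 libraries, against 39.7% of all regions. None was found in VPA alone (0.186% of all regions) or in CTRL alone (0.326%). The limma test called 0 of 12 regions and 0% of all 27794, with or without the block, and at an unadjusted p below 0.05 it gave 0 of the 12, against 254 of all regions without the block and 598 with it. The median log2 change was 0.10 over the 12 regions and −0.02 over all. The SE of the 12 changes was 0.23 to 0.96 on the log2 scale, and changes of that size were not detectable. In simulated data even CTCF changes of 3 on that scale were called in 12% of regions without the block and 0% with it. Only 200 regions were changed there, so these shares do not give the power in these data.

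The strongest CTCF regions of these genes lay in intron 1 of CDKN1A, in an exon of CDKN2B, before CDKN1C, before CDKN2D and 12.6 kb before CDKN1B. In CDKN1A, chr6:36679563-36681230 had its median summit 1905 bp after the canonical start, inside the acetylated promoter domain. Its strongest summit lay 8 bp from the centre of the minus-strand site printed above. Its folds were 42.1, 61.9 and 80.7 in CTRL and 99.7, 97.8 and 69.2 in VPA, and its change was 0.56 (SE 0.40, 95% interval −0.36 to 1.49, limma adjusted p = 1.00). In CDKN2B, chr9:22008333-22009826 had folds of 46.3, 117 and 76.9 in CTRL and 81.0, 91.2 and 99.9 in VPA (log2 0.28, limma adjusted p = 1.00).
Regions stood before CDKN1C at an exon and in an intron of SLC22A18AS. The nearer, chr11:2888008-2889192, holds the full match printed above 2 bp from its summit, with folds of 50.6, 76.1 and 72.1 in CTRL and 69.8, 78.6 and 115 in VPA. It was higher in VPA in 3 of 3 replicate numbers (log2 0.40, SE 0.38, limma adjusted p = 1.00). The farther, chr11:2891002-2893402, overlaps the weak H3K27ac region and changed by 0.33.

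Single libraries set several CTCF values. Before CDKN2D, chr19:10571899-10573039 had folds of 62.9, 61.4 and 78.1 in CTRL and 10.9, 84.5 and 92.2 in VPA, so that the fitted change of −0.61 (SE 0.83) came with VPA higher in replicates 2 and 3. Before CDKN1B, chr12:12704252-12705311 had folds of 11.4, 78.3 and 85.9 in CTRL and 26.3, 31.2 and 115 in VPA (log2 0.10, SE 0.96). The next CDKN1B region, chr12:12714283-12715116, 2641 bp before the start, had folds of 2.19, 26.9 and 22.7 in CTRL, no peak in VPA replicate 1, and 28.6 and 28.5 in the other VPA libraries. The groups were apart on fold enrichment at 1 CTCF region, against 2.24% of all regions with CTRL above and 3.87% with VPA above. This was a weak one in CDKN2B, chr9:22005180-22006465, with 5.06, 5.08 and 4.54 in CTRL and 3.59, 3.65 and 4.24 in VPA (log2 −0.36, limma adjusted p = 1.00), and its summit coverage overlapped. In CTRL replicate 1 the 5.06 came from a peak at which VPA replicate 1 had none. Matched by position, the replicate 1 folds were 2.39 in CTRL and 3.59 in VPA, so the separation depended on the peak. On summit coverage 0 of the 12 regions were apart, against 1.85% of all regions with CTRL above and 0.284% with VPA above. The remaining regions, at the promoters of CDKN1C and CDKN2D, the ARF start, CDKN2C, the FAF1 start and the KRI1 start, had folds of 3.57 to 22.6. CTCF-covered length had a longer mean in VPA at 4 of 7 genes (exact permutation p of 0.4 to 1). The share of all genes with a longer mean was not counted, and the median difference over all genes with a CTCF peak was −78.7 bp. The groups were apart at 0, against 1.26% of genes with VPA above and 1.86% with CTRL above.

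**Figure D5:**
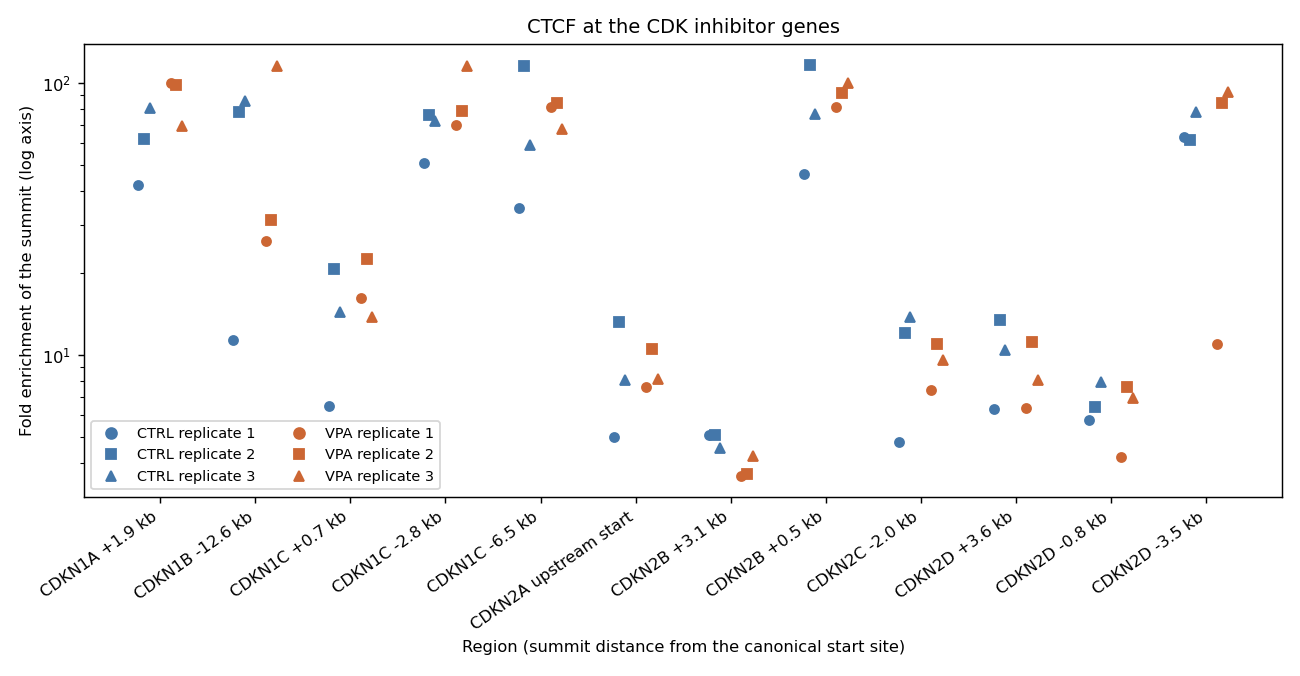
CTCF fold enrichment (log axis) in each library at the 12 regions of the CDK inhibitor genes with a peak in all 6 libraries, labelled by the distance of the summit from the canonical start. Blue is CTRL, orange is VPA and the symbol gives the replicate number. The groups overlap except at the weak CDKN2B region 3.1 kb after its start, and replicate 1 of VPA falls to 10.9 at CDKN2D where the other libraries lie at 61.4 to 92.2.

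The partners of the inhibitors were read from a list of 35 genes, of which 34 had an H3K27ac promoter region in all 6 libraries. The exception, CCNA1, had one in 4. The limma test without a block called 0 of the 34 in either direction. With the block, 5 were lower and 0 higher, against 16.2% lower and 1.25% higher of all promoter regions. Of these, 4 were BMI1 (log2 −1.23, limma adjusted p = 0.00163), a Polycomb protein known to repress the CDKN2A locus, SP3 (−1.11, adjusted p = 0.00271), E2F3 (−0.79, adjusted p = 0.0158) and SKP2 (−0.62, adjusted p = 0.0424), a ubiquitin ligase subunit that targets p27. By role, the block called 0 of 10 cyclins and kinases, 1 of 10 pocket proteins and E2F factors, 3 of 8 regulators of the inhibitors and 0 of 3 deacetylases. On summit coverage without the block, 8 were lower and 0 higher, against 18.1% and 0.695% of all promoter regions. With the block, 29 were lower and 1, CCND3, was higher (log2 0.38), against 74.5% and 3.76%. The median change in fold of the 34 was −0.36, against −0.27 over all promoter regions. For CTCF, 9 of the promoters could be tested and 0 were called.

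The promoters whose H3K27ac pattern was most like that of CDKN1A, by Euclidean distance over the 6 log2 folds among 11755 genes, were PIGU (distance 0.42), C12orf75 (0.45) and ZNF611 (0.46). PIGU had folds of 4.11, 10.0 and 11.3 in CTRL and 3.58, 14.6 and 16.8 in VPA.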

How the data were processed

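ChIP-seq of HEK293T cells with antibodies against H3K27ac and CTCF gave 12 peak lists, 3 CTRL and 3 VPA per antibody. The 6 input samples were not analysed here. Chromatin was sonicated to 200 to 600 bp. The authors aligned reads to hg38 with Bowtie2 and called peaks per library, without pooling, with MACS at a q-value of 0.05 (MACS3 3.0.0a7 in the submitters' processing notes). Use of the input is not given in the sources used here. For each summit the authors' peak caller wrote, in the deposited lists, a ratio (the fold enrichment over local background), the −log10 p-value and the −log10 q-value. The deposited score was not used. The authors' read-based comparison was not repeated, since reads were not used here.

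Regions were merged peaks sharing 1 bp, and a library's value was the highest among its peaks there, taken for each measure on its own. The log2 fold, with no pseudocount and no scaling, was tested with limma 3.58.1 (R 4.3.3, trend) over regions with a peak in all 6 libraries, with Benjamini-Hochberg adjustment at 0.05. Requiring 6 peaks leaves out weak regions. The summit pileup was recovered from the fold and the −log10 p-value, and was a whole number within 0.05 in at least 99.9975% of peaks of each list. Covered lengths were compared by an exact two-sided permutation test. Intervals were handled in Python 3.11.15 with pandas 2.3.3. The test was checked on simulated data with the spread of these libraries, and it missed most changes. Only 200 regions were changed in each run, and without the block the offset of replicate 1 entered as independent noise. For H3K27ac without a block the test called 0% of log2 changes of 2 and 22% of changes of 3. With the block it called 4% of changes of 1, 58% of changes of 2 and 80% of changes of 3. For CTCF it called 12% of changes of 3 without the block and 0% with it. Unchanged regions were called in 0%. With so few changed regions the adjustment is strict, so these shares do not give the power in these data. In the real libraries the fit with the block called 11.8% of H3K27ac regions lower and 4.73% higher. No pair of lists held the same intervals in more than 0.0192% of peaks.

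H3K27ac libraries of the same number deviated together (correlations of 0.87, 0.59 and 0.59 across regions), each over 0.1, and on this rule the numbers were taken to pair them. Replicates 2 and 3 also correlated across numbers (0.61 and 0.55), so the check sets replicate 1 apart but does not tell 2 from 3.

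All 7 genes were named, with each region found in at least 2 libraries, the genes starting inside their windows, the called genes of the partner list (at most 5 per direction) and the 3 promoters most like CDKN1A. A called gene of that list is not reported here. The genes and lists were chosen with earlier results of these data known. Alternatives were median centring, summit coverage, the replicate block, a −log10 q-value of at least 5, no trend, the mean over peaks, equal list lengths, other windows, an overlap of 50% and leaving out each library.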

Additional observations from a re-analysis of the deposited data

How the results depend on the processing

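H3K27ac calls depended on the measure and the block. The count of regions lower in VPA, 0 as tested, was 7 with summit coverage, 7 with the replicate block, 13 (and 2 higher) with both, and 6 with median centring and the block. Partner genes lower in VPA, 0 as tested, were 8, 5, 29 (and 1 higher) and 3. The 7 regions by coverage held the FAF1 start in place of the p16 start called with the block. The block changed no other call of the limma fits. The combinations with the block were chosen after seeing the data. The H3K27ac median change, −0.25, was −0.17 with centring (with or without the block), −0.39 with coverage (with or without the block) and −0.36 in replicates 2 and 3 alone, and with 1 library left out it lay between −0.83 (without CTRL replicate 1) and 0.15 (without VPA replicate 1). It was 0.05 without CTRL replicate 3, −0.08 without CTRL replicate 2, −0.48 without VPA replicate 2 and −0.68 without VPA replicate 3, and no region was called in these fits. The CDKN1A region 11.3 kb upstream turned to −0.38 with coverage and the block. Estimates of 1 of 18 H3K27ac regions changed sign with centring, with coverage or with the mean over peaks, and of 1 to 4 when a library was left out. H3K27ac regions found in VPA alone, 0 as counted, were 1 with a −log10 q-value minimum of 5, 2 within 50 kb, and 0 to 1 with a library left out (1 without CTRL replicate 3 or VPA replicate 1). Genes whose covered length lay wholly higher in VPA, 0 as counted, were 1 at that q-value, 3 within 50 kb, and 0 to 4 with a library left out (4 without VPA replicate 1, 2 without CTRL replicate 2). The CTCF median, 0.10, was −0.25 without CTRL replicate 1, 0.63 in replicate 1 alone and −0.054 in replicates 2 and 3 alone, and up to 0.48 (without CTRL replicate 2). Genes with longer CTCF coverage, 4 in the mean, were 0 when all 3 replicate numbers had to be longer (the pairing by number), 1 without CTRL replicate 1 and 7 without VPA replicate 1, and those wholly higher, 0, were 1 without CTRL replicate 3 or VPA replicate 1. CTCF libraries share only a number by their folds (correlations of same-numbered deviations 0.34, −0.05 and 0.48, and 0.79, 0.54 and 0.85 on summit coverage), and with the replicate block 0 CTCF regions were called on either measure, as without it. CTCF regions with the motif, 2, were 6 with 1 mismatch. The cause of these changes was not tested. Depth is unknown, and 3 libraries per group limit all tests.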
